A study of Mus musculus with 2 samples.

Results

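Neurexins and neuroligins are adhesion proteins that meet across the synaptic cleft, and 5 genes of these families were followed in the newborn mouse cortex. The members were listed by name: Nrxn2 and Nrxn3, which encode neurexins, and Nlgn1, Nlgn2 and Nlgn3, which encode neuroligins. They are 5 of 55536 annotated genes and have 46 annotated transcripts, all of which were looked up in both libraries. Other genes of the families were not analysed here. The series holds 1 group, the left cortex of B6CASTF1/J males (F1 hybrids of C57BL/6 and CAST mice) aged 4 days, with 1 total RNA library from each of 2 tissue samples. No treatment or genotype contrast was sampled, so the values describe this tissue and age. The labels number the tissue samples apart and give them 1 shared donor identifier, so the spread between the libraries may be less than that between animals. All p-values compare the counts of 1 library with the other and cover counting error only. RNA came from whole tissue, in which fewer cells of a type and less RNA per cell cannot be told apart.

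Neurexins sit mainly on the axon terminal. Each gene makes a long alpha protein and, from a promoter inside the gene, a short beta protein that keeps only the last of the extracellular globular domains. Neuroligins sit on the dendrite and bind neurexins through a cholinesterase-like domain. Nlgn1 is known best from excitatory synapses, Nlgn2 from inhibitory synapses, and Nlgn3 from both. Small optional exons in both families change which partner is bound. The best known of them in neurexins, at splice site 4, sets the choice among neuroligins, LRRTM proteins and cerebellins.

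The optional exons on which the transcript results turn are shown first, since inclusion values refer to these stretches. They were read from the GENCODE M21 transcripts and are given in the direction of transcription, with mm10 coordinates. The 90-base exon of Nrxn3 at splice site 4 is at chr12:90199147-90199236 (+ strand), and is given in lower case because no stretch of it is singled out.
Nrxn3: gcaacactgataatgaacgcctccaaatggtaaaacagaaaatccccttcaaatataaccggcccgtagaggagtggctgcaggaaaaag

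In the neuroligins the optional exons lie in the part that encodes the cholinesterase-like domain, at the position known as site A. Nlgn1 has a 60-base exon at chr3:25920178-25920237 (- strand). Nlgn3 has a pair of neighbouring 60-base exons, the first at chrX:101303072-101303131 and the second at chrX:101307075-101307134 (both + strand). Nlgn2 has a 51-base exon at chr11:69830563-69830613 (- strand). Capitals mark the positions at which the Nlgn1 exon and the second Nlgn3 exon are identical, which are 43 of 60 bases (71.7%). The first Nlgn3 exon shares 16 of 60 positions with the Nlgn1 exon and 19 of 60 with its own neighbour, and it is given in lower case, as is the Nlgn2 exon.
Nlgn1: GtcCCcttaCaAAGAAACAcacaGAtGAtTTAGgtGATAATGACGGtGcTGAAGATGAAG
Nlgn3, second exon: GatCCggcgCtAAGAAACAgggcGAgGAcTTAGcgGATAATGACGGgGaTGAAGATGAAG
Nlgn3, first exon: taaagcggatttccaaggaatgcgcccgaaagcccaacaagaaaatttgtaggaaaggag
Nlgn2: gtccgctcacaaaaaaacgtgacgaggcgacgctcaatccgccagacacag

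Depth was 26897687 expected counts for replicate 1 and 29511737 for replicate 2. Of 22028 protein-coding genes, 13084 had at least 1 TPM (a share of all transcripts in the library that accounts for transcript length) in each library, and their median level was 17.62 TPM. The cortical label was checked against marker genes: all 6 excitatory markers were detected, with summed levels of 676.6 and 594.3 TPM in replicates 1 and 2, and all 4 pan-neuronal markers, with 1783 and 1876 TPM. Markers of neighbouring regions and blood were higher in replicate 2. Striatal markers summed to 46.86 and 80.24 TPM (4 of 4 higher), olfactory bulb markers to 7.45 and 37.3 TPM (3 of 3), choroid plexus markers to 1.83 and 33.97 TPM (1 of 2 tested) and red blood cell markers to 147.7 and 304.0 TPM (3 of 3). No marker on these lists was at 0 in both libraries.

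All 5 members were expressed well above the typical protein-coding gene, and Nrxn2 stood far above the rest. Nrxn2 (ENSMUSG00000033768.17, chr19:6418731-6544169, + strand) was at 347.18 TPM in replicate 1 and 375.57 TPM in replicate 2, a mean of 361.4 ± 20.1 TPM (SD, n = 2 here and below). That level is rank 144 of the detected protein-coding genes, within the top 1.1%. Nrxn3 (ENSMUSG00000066392.11, chr12:88722876-90334935, + strand) was at 76.34 and 76.03 TPM, a mean of 76.19 ± 0.219 TPM and rank 1461. The libraries differed more in Nrxn2 than in Nrxn3 on this scale, and the Nrxn2 values lay far above those of Nrxn3.

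Among the neuroligins, Nlgn2 was the highest and Nlgn1 the lowest. Nlgn2 (ENSMUSG00000051790.15, chr11:69823122-69837784, - strand) was at 118.52 and 121.10 TPM, a mean of 119.8 ± 1.82 TPM and rank 764. Nlgn3 (ENSMUSG00000031302.16, chrX:101299168-101325963, + strand), an X-linked gene, was at 82.94 and 85.37 TPM, a mean of 84.16 ± 1.72 TPM and rank 1279. Nlgn1 (ENSMUSG00000063887.13, chr3:25426215-26332460, - strand) was at 55.01 and 52.60 TPM, a mean of 53.8 ± 1.70 TPM and rank 2272, still within the top 17.4% of detected protein-coding genes. The libraries of the 3 genes did not overlap. As shares of the summed TPM of these 3 neuroligin genes, Nlgn2 made up 46.5 ± 0.376%, Nlgn3 32.6 ± 0.434% and Nlgn1 20.9 ± 0.810%. The second quantification that the authors deposited gave 41.6%, 39.7% and 18.7%, so the shares moved by more than these SDs.

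The order of the members was therefore Nrxn2, Nlgn2, Nlgn3, Nrxn3 and Nlgn1, and each neighbouring pair differed beyond its spread: the libraries did not overlap and the means differed by more than both SDs together. Nrxn2 was 2.93-fold Nlgn2 in replicate 1 and 3.10-fold in replicate 2. Nlgn2 was 1.43-fold and 1.42-fold Nlgn3, and Nrxn3 was 1.39-fold and 1.45-fold Nlgn1. The closest pair was Nlgn3 and Nrxn3, at 1.09-fold and 1.12-fold. The second quantification that the authors deposited, a transcript table summed per gene, gave the same order, at means of 634.0 TPM for Nrxn2, 171.8 for Nlgn2, 163.8 for Nlgn3, 125.4 for Nrxn3 and 77.41 for Nlgn1. There the closest pair was Nlgn2 and Nlgn3, at 1.02-fold and 1.08-fold.

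The lower end of the order depended on which transcripts were counted. With only transcripts annotated as protein-coding, Nrxn3 was at 35.18 and 40.12 TPM and Nlgn1 at 40.57 and 43.07 TPM. Nlgn1 then came before Nrxn3, and this pair no longer differed beyond its spread. Nrxn2 remained first at 264.5 and 276.9 TPM, followed by Nlgn2 at 115.6 and 119.3 TPM and Nlgn3 at 79.27 and 81.94 TPM. The other quantification gave the same order on protein-coding transcripts.

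**Figure D1:**
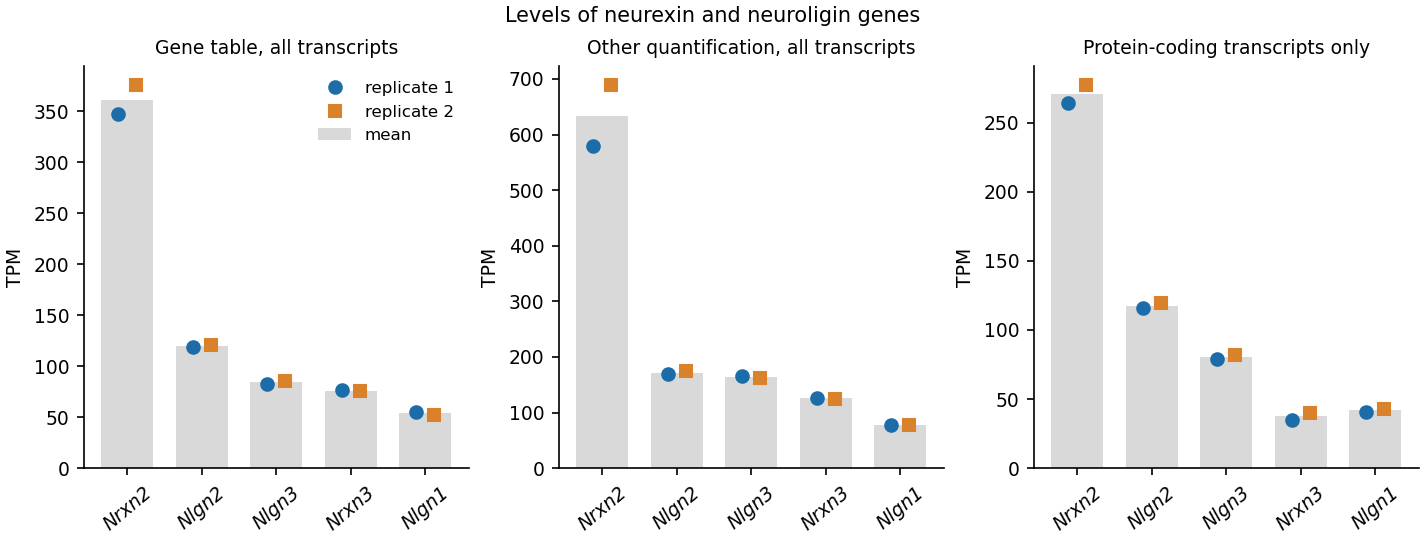
TPM (vertical axes, from 0) of the 5 genes in the gene table, in the other quantification and over protein-coding transcripts only, with bars for the mean and points for each library. Nrxn2 is the highest in every panel (361.4 TPM in the gene table), and Nrxn3 falls to the level of Nlgn1 in the panel of protein-coding transcripts.

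Long and short neurexins were present in unlike proportions in the neurexin genes. A protein-coding transcript was called long, for the alpha form, when its coding sequence had at least 50% of the length of the longest one of its gene. In Nrxn2, 6 long transcripts (4509 to 5130 coding bases) summed to 122.9 and 128.8 TPM, and 3 short ones to 141.5 and 148.1 TPM. The long share of the protein-coding TPM was 46.5 ± 0.0305% by this rule. One of these short transcripts, Nrxn2-209 (24.13 and 23.84 TPM), is an incomplete model of 648 coding bases that spans exons of the alpha region, so the rule counts it as short although it lies in the long form's part of the gene. In Nrxn3, 3 long transcripts (3300 to 4713 coding bases) summed to 25.74 and 29.66 TPM and 2 short ones to 9.44 and 10.46 TPM, a long share of 73.5 ± 0.539%. Both libraries of Nrxn3 had a larger long share than both libraries of Nrxn2.

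The Nrxn2 share lay near parity and crossed it with the definition. It was 48.9% in the other quantification, 51.0% without Nrxn2-209, 55.4% with long transcripts defined by a 5′ end in the 5′ part of the gene, which counts Nrxn2-209 as long, and 62.9% in counts, which favour long transcripts. The Nrxn3 share was 73.7% in the other quantification, 79.0% with transcripts annotated for nonsense-mediated decay included and 88.1% in counts. Nrxn3 was above Nrxn2 under each of these definitions.

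Single transcripts carried most of each form in the table with expected counts. In the other quantification none carried most of long Nrxn2. There Nrxn2-204 had a mean of 86.8 TPM, Nrxn2-201 48.6 TPM, Nrxn2-205 32.1 TPM and Nrxn2-208 15.8 TPM. Nrxn2-202, a short transcript with 1980 coding bases, was the highest transcript of any member at 116.62 and 123.68 TPM in the table with expected counts. The long Nrxn2 transcripts were led by Nrxn2-204 (4920 coding bases) at 69.42 and 67.15 TPM and Nrxn2-201 (4509 coding bases) at 34.92 and 47.57 TPM. The deposited intervals for Nrxn2-201, 27.4 to 37.9 TPM and 39.9 to 51.4 TPM, did not overlap between the libraries. In Nrxn3 the long form was almost wholly Nrxn3-205 (4713 coding bases) at 23.65 and 27.04 TPM. Its intervals, 21.4 to 23.8 and 24.8 to 27.1 TPM, did not overlap either. The same held in the neuroligins for Nlgn3-201, at 36.9 to 43.0 and 44.4 to 48.3 TPM. It also held for Nlgn1-204, at 12.6 to 15.2 and 8.11 to 10.4 TPM. How often intervals lie apart over all transcripts was not counted, so these are not set apart from other transcripts. An interval need not hold its TPM: Nlgn3-201 was at 49.61 TPM in replicate 2, above its interval. The main short Nrxn3 transcript was Nrxn3-203 (1290 coding bases) at 7.06 and 8.57 TPM, with overlapping intervals, against 2.38 and 1.89 TPM for Nrxn3-202 (1701 coding bases). That ranking turned in the other quantification, with means of 5.95 TPM for Nrxn3-203 and 7.60 TPM for Nrxn3-202.

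**Figure D2:**
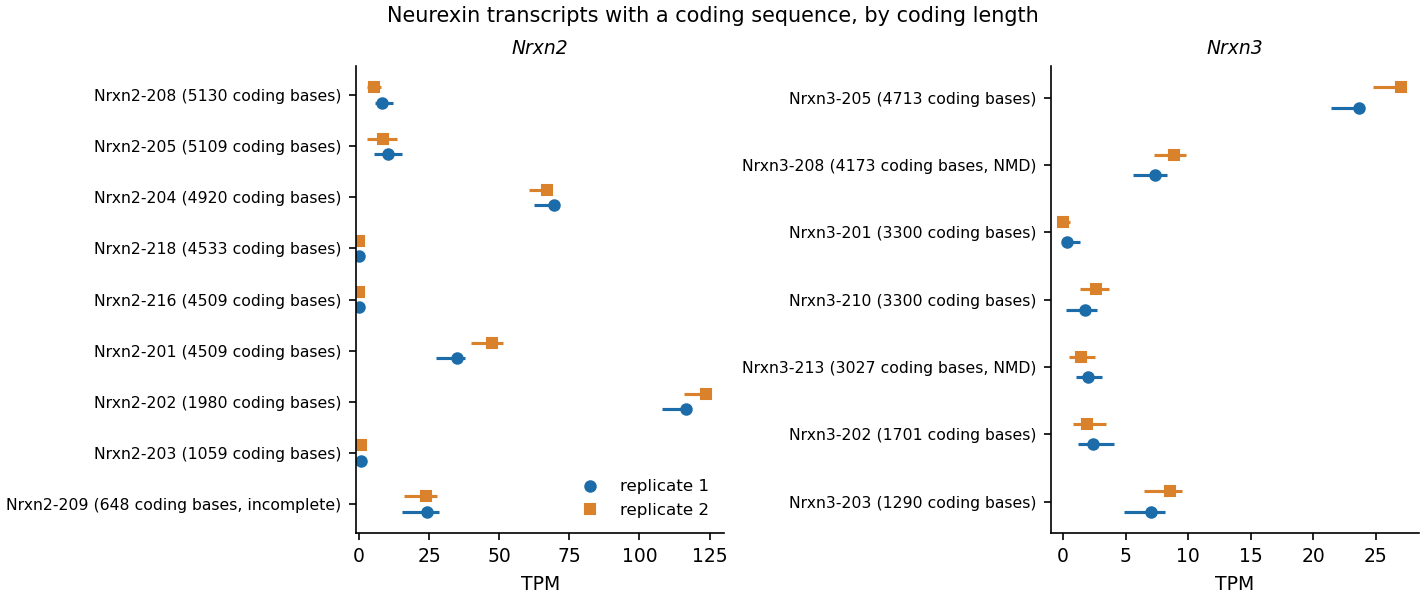
Each neurexin transcript with a coding sequence, ordered by coding length (vertical axis), against its TPM in each library (horizontal axis), with bars for the interval that the authors deposited with each value. A short transcript leads in Nrxn2 (Nrxn2-202, 116.62 and 123.68 TPM) and a long one in Nrxn3 (Nrxn3-205, 23.65 and 27.04 TPM).

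Each neuroligin had a protein-coding transcript as its highest in the table with expected counts. Nlgn2-202 and Nlgn2-201, each with 2508 coding bases, were at 88.77 and 94.79 TPM and at 18.73 and 17.47 TPM. Nlgn3-201 (2475 coding bases) was at 42.40 and 49.61 TPM, and Nlgn3-203, annotated as incomplete, was at 32.19 and 32.09 TPM. In Nlgn1 the leading transcripts were close to each other: Nlgn1-203 (2442 coding bases) at 16.70 and 17.79 TPM and Nlgn1-201 (2529 coding bases) at 16.67 and 17.22 TPM, with Nlgn1-205, which has the same coding length as Nlgn1-201, at 7.20 and 8.06 TPM. Nlgn1-203 and Nlgn1-201 overlapped between the libraries.

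Over the members, 10 internal coding exons reported here were contained in some protein-coding transcripts and skipped by others. All 10 have a length that keeps the reading frame, and in 7 of them transcripts with the exon made up over 50% of the TPM of transcripts that span it (8 in the other quantification). The tables give whole transcripts and no junction reads, so each inclusion value rests on how the annotation joins exons into transcripts. For 3 exons the only skipping transcript is incompletely annotated: the 30-base exon of Nrxn2, the Nlgn2 exon and the second Nlgn3 exon.

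At splice site 4 of Nrxn3 the overall value was largely set by the annotation. The exon printed above was in 79.9% and 78.6% of the Nrxn3 TPM that spans it (79.3 ± 0.914%), and in 88.4% in the other quantification. The annotation holds no protein-coding long Nrxn3 transcript without the exon, so long transcripts count as 100% and only the short form can vary. Of the short TPM, 25.2% and 18.1% contained it. The other quantification gave 55.9% for short Nrxn3, so whether the short form mostly lacked the exon depended on the quantification.

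The optional exons of Nrxn2 described here lie in the region that complete short transcripts lack. The 30-base exon was included at 84.0 ± 0.562%, the 72-base exon at 54.4 ± 2.28%, the 24-base exon, which also has a 45-base form, at 56.5 ± 4.68% and the 27-base exon at 45.7 ± 3.08%. The 72-base and the 27-base exon are skipped by the same single transcript, Nrxn2-204, and without incomplete transcripts both came to 45.7%, which is then 1 measurement and not 2. In Nrxn3 a 27-base exon at chr12:89517906-89517932 was included at 8.12% and 8.83%, and at 15.9% in the other quantification. That exon is skipped only by Nrxn3-205, so its value follows that transcript, as the value of the Nrxn2 27-base exon follows Nrxn2-204. Most of the long Nrxn3 TPM thus lacked its 27-base exon, whereas the Nrxn2 values for its own 27-base exon were near 50%.

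In the neuroligins the site A exons ranged from mostly included to mostly skipped. The Nlgn2 exon was included at 93.0% and 94.1%, the second Nlgn3 exon at 59.4% and 60.8% and the Nlgn1 exon at 58.8% and 58.7%. The first Nlgn3 exon was at 5.90% in replicate 1 and 0.293% in replicate 2 (13.9% and 7.24% in the other quantification), and the deposited intervals of its single transcript Nlgn3-206 overlapped (1.97 to 7.51 TPM and 0.0778 to 3.15 TPM). The second Nlgn3 exon and the Nlgn1 exon were thus close in the table with expected counts. In the other quantification they were at 70.1% and 58.4%. Whether inclusion relates to the 71.7% of positions that these exons share was not tested.

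Nlgn1 also has the 27-base stretch known as site B, which affects binding to alpha neurexins. It lies at chr3:25439865-25439891 (- strand) at the 3′ end of an exon and is printed here because its value cannot be separated from that of site A.
Nlgn1, site B: gtaaccgttggagcaattcaaccaaag
The annotation places it in the transcripts that also hold the 60-base exon, Nlgn1-201 and Nlgn1-205, and in no other protein-coding transcript. Its share is therefore the same 58.8% and 58.7%, and the use of site A without site B, or of B without A, was not measured.

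**Figure D3:**
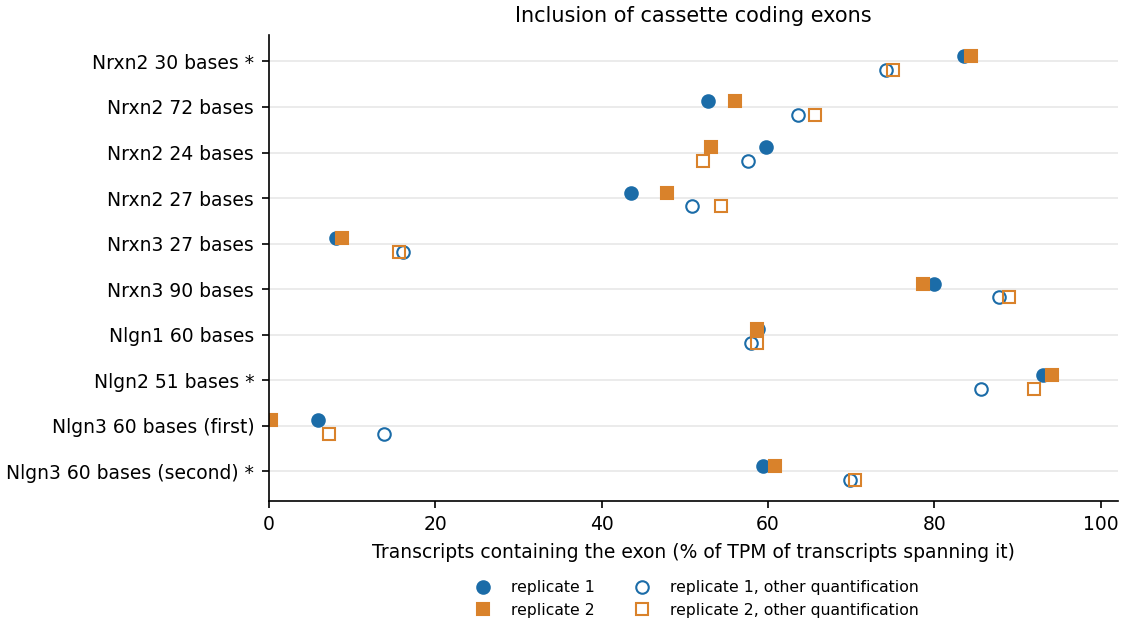
Share (%, horizontal axis) of the TPM of spanning protein-coding transcripts that contains each optional exon, for each library and each quantification, with a star where every skipping transcript is incompletely annotated. Values run from 93.0% and 94.1% for the Nlgn2 exon to 5.90% and 0.293% for the first Nlgn3 exon.

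The members differed in how much of their RNA came from transcripts that are not annotated as protein-coding. Protein-coding transcripts made up 98.0 ± 0.667% of the TPM of Nlgn2, 95.8 ± 0.280% of Nlgn3, 77.8 ± 5.76% of Nlgn1, 75.0 ± 1.72% of Nrxn2 and 49.4 ± 4.73% of Nrxn3. For Nlgn3 and Nrxn2 this share moved with the quantification. It was 59.4% for Nrxn2 and 57.0% for Nlgn3 in the other one, where in Nlgn3 a pair of short processed transcripts, Nlgn3-204 and Nlgn3-205, made up the rest. In Nrxn2, processed transcripts other than retained introns made up 21.4 ± 2.52% by TPM, 37.7% in the other quantification and 3.12% by counts. The main one, Nrxn2-213, is 576 bases long and was at 46.95 and 56.90 TPM. Short transcripts weigh more in TPM than in counts.

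Retained-intron transcripts, which keep an intron and are usually held in the nucleus, took larger shares in Nrxn3 and Nlgn1 than in the other members. They made up 28.7% and 24.9% of the Nrxn3 TPM, chiefly Nrxn3-204 at 18.38 and 16.04 TPM, and 26.3% and 18.1% of the Nlgn1 TPM, all of it Nlgn1-204 at 14.45 and 9.53 TPM. Over 7617 detected protein-coding genes with such a transcript the median share was 13.6% (middle 50% of genes 6.09% to 26.7%), so Nlgn1 lay within the middle range and Nrxn3 at its upper edge. By counts the shares were 14.3% in Nrxn3 and 15.5% in Nlgn1. Of these genes, 75.1% lay below Nrxn3 and 67.8% below Nlgn1, while 14.0% lay below Nrxn2 (3.67%) and 6.68% below Nlgn2 (1.97%). All 4 members with such transcripts had a lower share in replicate 2, as did 59.9% of all these genes. Nrxn3 also had 12.9 ± 0.975% in transcripts annotated for nonsense-mediated decay, a class that is degraded after a premature stop, led by Nrxn3-208 at 7.36 and 8.88 TPM.

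**Figure D4:**
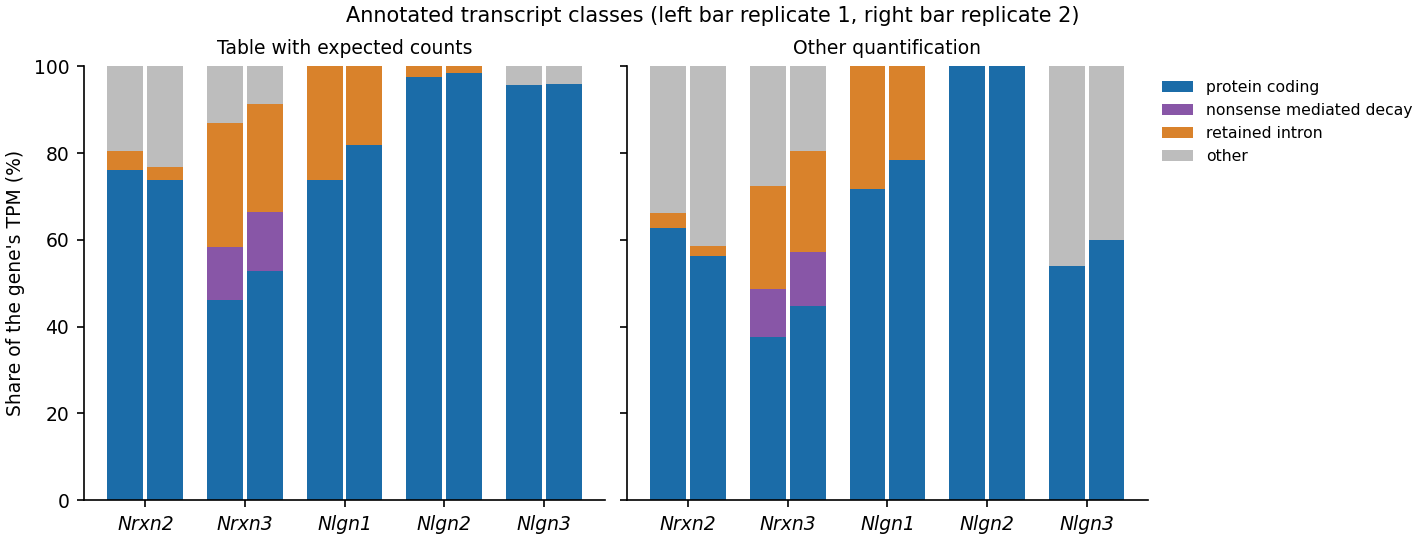
Share of each gene's TPM (%, vertical axis) by annotated transcript class, with the left bar for replicate 1 and the right bar for replicate 2, in both quantifications. Protein-coding transcripts hold 98.0% of Nlgn2 and 49.4% of Nrxn3 in the table with expected counts, and Nlgn3 changes most between the panels.

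The libraries were then compared gene by gene, which asks how far these 2 libraries differ and says nothing of a condition. Nrxn2 had 20391 and 24171 expected counts, Nrxn3 5768 and 7079, Nlgn1 4266 and 4822, Nlgn2 9937 and 11738, and Nlgn3 7710 and 9157. After scaling to library size, the counts of all 5 members were higher in replicate 2, although the TPM of Nlgn1 and Nrxn3 was not, and 4 of 5 passed an exact binomial test (two-sided, adjusted by Benjamini-Hochberg). Of all 20385 genes tested, 26.7% passed, 13.9% higher and 12.7% lower. At these depths small differences pass: of the 1205 genes with at least as many counts as Nlgn1, 68.4% passed, 48.8% higher in replicate 2. The count of 4 in 5 is near the 68.4% that passed in either direction. All 4 that passed were higher in replicate 2, as were 588 of the 824 of these genes that passed. The 5 members are too few to tell apart from either share.

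All ratios were small. The log2 ratio of replicate 2 over replicate 1 was 0.141 for Nrxn2 (SE 0.0137 from counts alone, exact binomial test, adjusted p = 7.92e-23), and 0.191 for Nrxn3 (SE 0.0256, adjusted p = 2.81e-12). It was 0.136 for Nlgn2 (SE 0.0197, adjusted p = 1.39e-10), 0.144 for Nlgn3 (SE 0.0223, adjusted p = 2.66e-09) and 0.072 for Nlgn1 (SE 0.0303, adjusted p = 0.0611). Among the 1205 deep genes the median absolute ratio was 0.092 and the 90th percentile 0.212, and each of the 5 lay under the latter. The Nlgn1 ratio passed with DESeq2 size factors (0.09, adjusted p = 0.0143) and in the other quantification (0.118, adjusted p = 0.000347), and its adjusted p ran from 0.000347 to 0.322 over 6 alternatives. All 5 ratios were positive under each of these alternatives, with total count scaling included.

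The pan-neuronal markers Tubb3, Snap25, Syt1 and Rbfox3 had ratios of 0.149, 0.120, 0.139 and 0.153, within the range of the members (0.072 to 0.191). All 4 astrocyte markers were higher too, with summed levels of 181.9 and 201.0 TPM, and so were the striatal, olfactory bulb and blood markers given above. The part of these in the members' ratios was not tested. For Nlgn1 and Nrxn3 the direction depended on the scale: scaled counts were higher in replicate 2, while TPM was lower, at 55.01 and 52.60 for Nlgn1 and at 76.34 and 76.03 for Nrxn3. The deposited gene length, which enters TPM and not counts, was 4654 bases in replicate 1 and 4858 in replicate 2 for Nlgn1, and 4536 and 4933 for Nrxn3. The protein-coding share of both genes was higher in replicate 2 as well.

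Partners of the members were then taken by role, as 35 genes, of which 33 were detected. Between the libraries 11 of 35 passed the exact binomial test as higher in replicate 2 and 5 as lower, against 13.9% and 12.7% of all genes tested, and their median log2 ratio was 0.06 against -0.003 over all genes. Of the 18 partners with at least 3862 counts, the median of the list, 8 were higher and 3 lower, while of all 3215 genes with at least as many counts 38.4% were higher and 20.2% lower. Of the presynaptic scaffolds that bind the neurexin tail or its partners, 6 of 6 were detected, from Lin7c at 113 TPM to Lin7a at 8.59 TPM. Only Cask, a membrane-associated kinase-like scaffold, passed (94.97 and 97.11 TPM, log2 ratio 0.072), and not under every alternative (highest adjusted p = 0.206). Secreted binders were mostly low: 9 of 11 were detected, with a median of 9.55 TPM.

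Among those secreted binders Sparcl1, the astrocyte protein hevin that bridges neurexin and neuroligin, was the highest at 232.45 and 249.02 TPM, and Cbln3 the lowest at 0.37 and 0.30 TPM. Sparcl1, Cbln1, Nxph1 and Nxph3 passed as higher, at log2 ratios of 0.174, 0.214, 0.153 and 0.229, with the Cbln1 and Nxph1 calls lost under 1 of 6 alternatives each (highest adjusted p = 0.0801 and 0.0579). Cbln1 is a cerebellin, which binds neurexins that contain the site 4 exon. Nxph1 and Nxph3 are neurexophilins, which bind the alpha form.

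The 7 membrane-bound neurexin binders were all detected, from Adgrl1, a latrophilin, at 198.94 and 194.16 TPM to Lrrtm3, a leucine-rich postsynaptic protein, at 19.76 and 17.86 TPM. Clstn3, a calsyntenin, had the largest ratio of these at 0.307 (86.26 and 104.51 TPM), followed by the dystroglycan gene Dag1 at 0.198 and Adgrl1 at 0.093. Lrrtm3 was lower in replicate 2, at -0.207. Adgrl1 had a lower TPM in replicate 2 and more scaled counts, so its direction depended on the scale. The Mdga proteins, which bind neuroligins and keep neurexins off, were at 42.77 and 51.77 TPM (Mdga1, log2 ratio 0.139, passed) and 35.08 and 30.68 TPM (Mdga2, 0.037, did not pass).

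All 6 postsynaptic scaffolds that hold neuroligins were detected. Dlg4, which encodes PSD-95 of excitatory synapses, was the highest at 248.14 and 249.68 TPM and passed as higher by counts at 0.164. Gphn, which encodes the inhibitory scaffold gephyrin, was the lowest at 35.50 and 35.19 TPM. Dlg3 and Magi2 passed as lower, at -0.142 and -0.144.

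The splicing regulators of the site 4 exon are the STAR-family RNA-binding proteins, which promote its skipping. Khdrbs3 was at 174.00 and 151.05 TPM, Khdrbs1 at 83.02 and 84.69 TPM and Khdrbs2 at 18.77 and 12.07 TPM. Khdrbs2 and Khdrbs3 were lower in replicate 2, at log2 ratios of -0.551 (adjusted p = 4.92e-11) and -0.259 (adjusted p = 9.38e-13, exact binomial test), and Khdrbs1 was higher at 0.110 (adjusted p = 0.0011). Site 4 inclusion in Nrxn3 was 79.9% and 78.6% in the same libraries, and 87.8% and 89.0% in the other quantification. In the short form, the only part that can vary, it was 25.2% and 18.1%, against 53.3% and 58.4%. The direction of the exon between the libraries thus depended on the quantification. With 2 libraries no relation between the regulators and the exon could be tested.

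**Figure D5:**
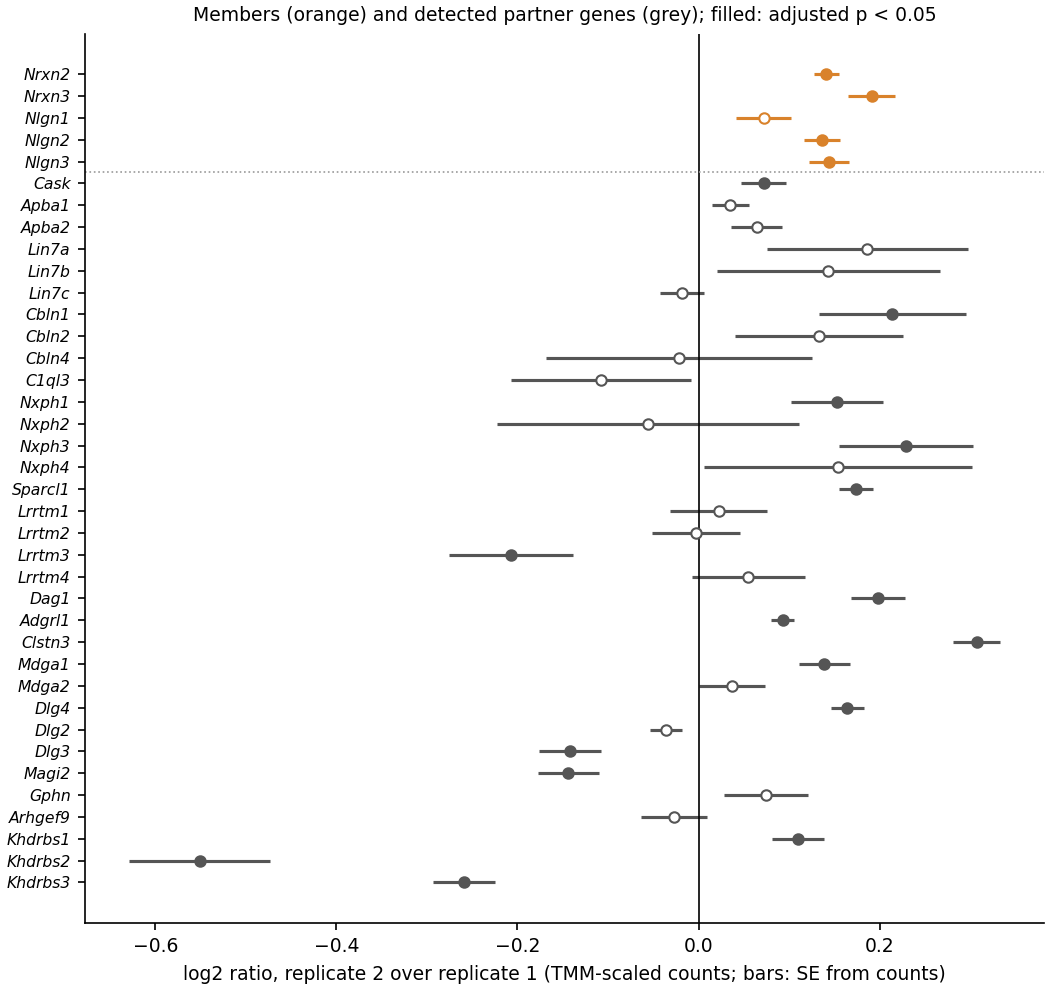
Log2 ratio of replicate 2 over replicate 1 (horizontal axis, scaled counts) for the 5 members in orange and the detected partner genes in grey, with bars for the SE from counts and filled points for an adjusted p under 0.05. The members lie between 0.072 and 0.191, and Khdrbs2 at -0.551 lies farthest to the left.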

How the data were processed

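Per the file headers, the authors deposited for each library a gene table and a transcript table with expected counts, TPM with an interval whose level is not stated, and posterior means of TPM, and a second transcript table with estimated counts and TPM, called the other quantification. A column of the first transcript table, the percent of the gene by transcript per the file headers, was recomputed here from TPM. The deposited notes name mm10 and GENCODE M21. Aligner, quantifiers, versions and strand setting were not given in the sources used here. Whether CAST reads were lost against mm10 was not tested.

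Symbols came from the transcript identifiers (55450 of 55536 genes matched), and coordinates, transcript classes and coding lengths from M21. The 97 spike-in rows (0.323% and 0.351% of counts) and 26248 rows with a numeric identifier (6 and 2 counts) stayed out of sizes and tests. A count of 0 allows up to 3 counts, which is 0.112 and 0.102 CPM in replicates 1 and 2. Such limits cover counting error only. Detected means at least 1 TPM in each library. Ratios used expected counts scaled by TMM (edgeR 4.0.16, R 4.3.3) with a prior count of 0.5. A two-sided exact binomial test (SciPy 1.17.1) of rounded counts was adjusted by Benjamini-Hochberg over genes with at least 10 counts, at a threshold of 0.05, and was checked on simulated data. DESeq2 1.42.0 size factors were an alternative. Inclusion is the share of the TPM of protein-coding transcripts spanning an exon that contain it.

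The members and lists were chosen with earlier results of these data known. Named are the 5 members, their transcripts with at least 0.5 TPM in either quantification (at most 6 a gene), and of each partner role the highest, the lowest and the called genes. Genes or transcripts named beyond this were chosen after their values were seen. No gene was sought for a pattern like a member's, since 2 libraries of 1 group give no pattern. An item is not reported here, and counts of optional exons leave it out.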

Additional observations from a re-analysis of the deposited data

How the results depend on the processing

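Levels moved by more than their SD under most settings, while the order held except as given here. In the order Nrxn2, Nrxn3, Nlgn1, Nlgn2, Nlgn3, means were 634.0, 125.4, 77.41, 171.8 and 163.8 TPM in the other quantification, 681.4, 143.6, 101.4, 225.9 and 158.6 TPM when TPM was rescaled over protein-coding genes only (fewer genes share the total), and 270.7, 37.65, 41.82, 117.5 and 80.60 TPM over protein-coding transcripts only, a setting added after the data were seen. Posterior mean TPM gave 74.81 for Nrxn3, 51.85 for Nlgn1, 116.5 for Nlgn2 and 81.55 for Nlgn3. Over protein-coding transcripts 3 of 4 neighbours were apart, in both quantifications. The long share of Nrxn2 was 48.86% in the other quantification, 55.37% by 5′ ends, 62.92% in counts and 51.03% without incomplete transcripts (added after the data were seen). That of Nrxn3 was 79.03% with nonsense-mediated decay transcripts and 88.05% in counts. Without incomplete transcripts 3 optional exons were over 50%, of 7 that could then be given. Beyond what a setting's construction shows, the cause was not tested.

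Of 20 alternative ratios of members, 18 kept their call, Nlgn1 passed in the other 2, and none turned sign. The 18 include those with a prior count of 5, which enters the ratio and not the test, so these calls could not change. The share of all calls that were higher in replicate 2 was 52.3%, 41.9% with total count scaling and 58.2% with DESeq2 size factors. Of 37 alternative exon values 26 stayed within 1 SD and 11 moved. The 26 include each value without 1 replicate, which with 2 libraries lies within 1 SD by construction. In the other quantification only the 24-base exon of Nrxn2 stayed within 1 SD. Partner calls were 11 higher and 5 lower, 13 and 5 with DESeq2 size factors or the other quantification, and 8 and 6 with total count scaling. Without 1 replicate a ratio cannot be formed. No paired analysis was possible because the series holds 1 group. Transcript estimates at this depth rest on few counts for minor forms. Nlgn3 shares 41.9% of its 31-base words with other genes (Nrxn2 5.92%, Nrxn3 3.30%, Nlgn1 9.05%, Nlgn2 0.0346%). Among leading transcripts, Nrxn2-202, Nrxn2-201, Nlgn3-201 and Nlgn1-201 hold 0 such words found in no other transcript. Nrxn2-204 holds 51, Nlgn2-202 734 and Nrxn3-205 1518. Where a transcript holds none, its level rests on how reads of shared sequence were divided. So do the long shares and exon inclusions that use it.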

Other observations

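Several annotated genes overlap the members. Reads in bases shared with a gene on the opposite strand can be assigned to either where counting did not use strand. Reads in bases shared on the same strand can be assigned to either in any case. Gm21986 lies on the strand of Nlgn3 and shares 3823 exonic bases with it, but was given 111 and 123 counts against 7710 and 9157 for Nlgn3. A830092H15Rik, antisense to Nlgn1, shares 1229 exonic bases and was at 4.38 and 3.00 TPM. Gm14964, opposite Nrxn2, shares 207 bases and was at 1.90 and 2.52 TPM. Slc22a12, also opposite Nrxn2, shares 682 bases and was at 0.15 and 0.05 TPM. No annotated gene overlaps Nlgn2.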
